A study of Mus musculus with 6 samples.

Results

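Expression was measured for 8 genes that build the node of Ranvier and the paranodal and juxtaparanodal domains beside it: Nfasc, Nrcam, Cntnap1, Cntnap2, Cntn1, Cntn2, Ank3 and Sptbn4. They were taken as 8 of the 18193 genes that the Affymetrix mouse genome arrays of the study name through a probe set assigned to 1 gene only, and together they had 25 such probe sets. For each gene the probe set with the highest mean over the arrays was used and the others were read as a check. The tissue came from male C57BL/6J mice and from 3 nuclei of the auditory brainstem, abbreviated VCN, LSO and MNTB: the cochlear nucleus in its ventral part, the superior olive in its lateral part and the medial nucleus of the trapezoid body. Each nucleus was sampled at postnatal day 3 (P3), as a pool of 6 animals, and at postnatal day 14 (P14), as a pool of 3, and no treatment or mutation is given. Each combination of nucleus and age was 1 array, so there were 6 arrays and no repeated pools. The nuclei were pulled with forceps from brain slices of 200 µm, so each pool held whole tissue, with glia as well as neurons.

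At a node of Ranvier, sodium channels are clustered in a short unmyelinated gap of the axon, where the action potential is renewed. Neurofascin (Nfasc) and NrCAM (Nrcam), adhesion molecules of the L1 family, are anchored at the node and at the axon initial segment by ankyrin G (Ank3), which beta IV spectrin (Sptbn4) ties to the actin cytoskeleton. At the flanking paranode, Caspr (Cntnap1) and contactin 1 (Cntn1) on the axon bind the glial form of neurofascin on the loops of the myelinating cell. In the juxtaparanode under the compact myelin, Caspr2 (Cntnap2) and contactin 2 (Cntn2, also called TAG-1) hold Kv1 potassium channels. Auditory brainstem axons carry precisely timed spikes, and in mice they are myelinated in the weeks around the onset of hearing.

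Promoter windows from RefSeq (GRCm38.p6), which run from 250 bases before a gene's start to 50 after it, were found for 6 of the 8 genes, 13 windows in all. The windows of Nfasc and Nrcam are shown because these relatives moved in opposite directions with age, and that of Cntn2 because it lies on chromosome 1 near Nfasc, with 1 annotated gene between them, and also moved opposite to it. Each is written 5′ to 3′ on the strand of its gene, and capitals mark the dinucleotide CG, which reads the same on both strands.
Nfasc, chr1:132642809-132643108, minus strand: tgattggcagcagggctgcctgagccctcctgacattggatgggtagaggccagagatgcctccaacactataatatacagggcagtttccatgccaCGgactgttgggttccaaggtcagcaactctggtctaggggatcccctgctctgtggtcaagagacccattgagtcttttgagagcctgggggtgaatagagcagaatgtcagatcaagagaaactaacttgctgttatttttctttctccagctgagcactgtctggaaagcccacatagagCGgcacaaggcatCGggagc
Nfasc, chr1:132707277-132707576, minus strand: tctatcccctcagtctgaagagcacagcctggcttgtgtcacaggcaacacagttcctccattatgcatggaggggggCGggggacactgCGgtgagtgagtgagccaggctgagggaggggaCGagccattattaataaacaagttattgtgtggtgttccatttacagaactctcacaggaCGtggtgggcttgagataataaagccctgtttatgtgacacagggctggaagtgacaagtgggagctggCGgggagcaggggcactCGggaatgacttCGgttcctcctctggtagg
Nrcam, chr12:44328635-44328934, plus strand: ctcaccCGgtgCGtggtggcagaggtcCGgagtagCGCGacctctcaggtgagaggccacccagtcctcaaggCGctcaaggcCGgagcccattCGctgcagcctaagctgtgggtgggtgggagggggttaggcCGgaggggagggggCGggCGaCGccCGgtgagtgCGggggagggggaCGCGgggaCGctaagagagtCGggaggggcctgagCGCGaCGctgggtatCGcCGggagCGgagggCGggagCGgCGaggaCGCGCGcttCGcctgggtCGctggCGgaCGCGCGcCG
Cntn2, chr1:132542891-132543190, minus strand: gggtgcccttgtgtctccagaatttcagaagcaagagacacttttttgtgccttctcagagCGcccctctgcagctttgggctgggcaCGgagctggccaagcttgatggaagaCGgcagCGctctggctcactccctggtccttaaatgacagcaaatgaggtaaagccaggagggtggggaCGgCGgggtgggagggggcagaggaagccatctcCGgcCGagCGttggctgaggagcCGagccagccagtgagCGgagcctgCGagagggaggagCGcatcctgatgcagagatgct
The windows of Nfasc held 3 and 7 CG pairs and had a GC content of 52.0% and 54.3%. The window of Nrcam held 37 CG pairs at a GC content of 74.0%, and that of Cntn2 held 13 at 61.3%. Over all 32851 windows of this length the median was 7 CG pairs and 94.6% held at least 1, so the Nrcam window stood at percentile 94.4 and the Nfasc windows at percentiles 23.3 and 47.9. The windows of Sptbn4, which has 4 annotated starts, held from 1 to 41 CG pairs. These counts describe the letters of the windows, and which start was used in these samples was not measured.

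All values are deposited RMA values in log2 units, so that a difference of 1 is a doubling. Array medians lay between 6.27 and 6.31. Differences were tested with limma over 12958 genes in an additive fit of age and nucleus, and a gene passed at a Benjamini-Hochberg adjusted p under 0.05. Because no pool was repeated, the spread within each gene is how far the age difference varied over the 3 nuclei. The p-values therefore rest on repetition over nuclei and not over animals. In limma this spread was drawn toward that of genes of similar level, with 3.95 prior against 2 residual degrees of freedom. Each SE, interval and p-value given here is thus moderated, and is not that of the 3 nuclei alone. With age, 5317 genes (41%) passed, 23.4% higher and 17.7% lower at P14. The gap between the 3' and 5' probe sets of Gapdh, which follows RNA quality, was 1.21 to 1.41 at P3 and 1.06 to 1.11 at P14. This gap and the pool size moved with age, and their part in the age differences cannot be told apart from age. In these bulk samples, fewer cells of a type and less RNA per cell cannot be told apart either.

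Of the 8 genes, 3 rose from P3 to P14 (Nfasc, Cntnap1 and Sptbn4), 3 fell (Nrcam, Cntnap2 and Cntn2) and 2 did not pass (Cntn1 and Ank3). That is 6 of 8 past the threshold, against 41% of all tested genes, and the median change of the 8 was 0.07 against 0.03 over all genes. The changes ran from a 3.35-fold rise of Nfasc to a 1.71-fold fall of Cntnap2. The P3 and P14 values did not overlap for 6 of the 8 genes, all but Cntn2 and Ank3, as was the case for 53.6% of tested genes (30.3% higher and 23.3% lower at P14). The sign was the same in all 3 nuclei for 7 of the 8 genes, all but Ank3, and for 67.9% of tested genes. In refits that dropped an array, the other array of that nucleus was fitted exactly and did not bear on the age change. The 6 such refits therefore hold 3 distinct age changes for each gene, 1 for each nucleus, and are not 6 separate checks. Leaving out the MNTB array of P3, or that of P14, left 1 rise (Nfasc) and 1 fall (Cntnap2) past the threshold. Calls were lost over all genes too, with 3142 and 3176 of 12958 passing in these fits, against 5317 with all arrays. Over the 6 refits 3142 to 4710 genes passed. Nrcam and Cntnap1 passed in the other 4 refits that dropped an array, Sptbn4 in the 2 of them that lacked an LSO array, and Cntn2 in none.

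**Figure D1:**
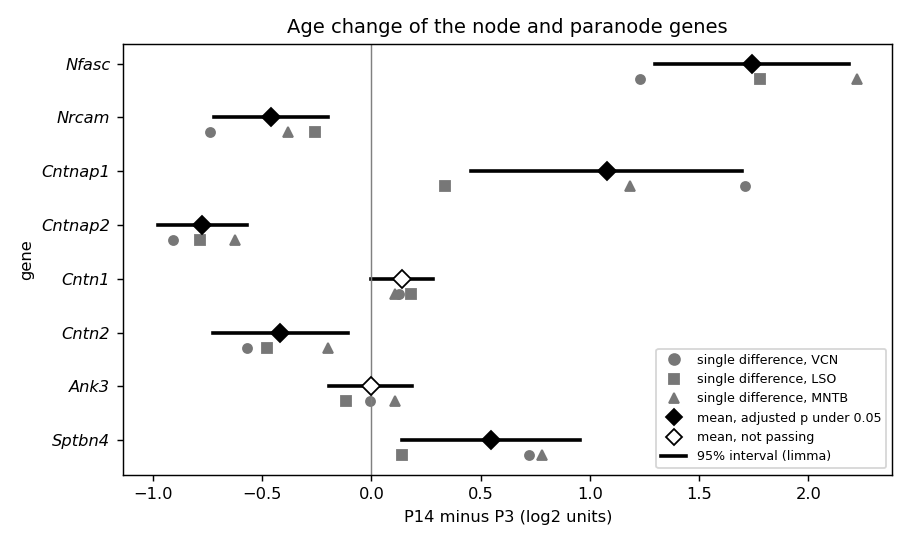
Age change of each of the 8 genes, as P14 minus P3 in log2 units on the horizontal axis, where diamonds are means over 3 nuclei with 95% limma intervals, filled where adjusted p was under 0.05, and grey symbols are the single differences in VCN, LSO and MNTB. Nfasc, Cntnap1 and Sptbn4 lie to the right of 0, Nrcam, Cntnap2 and Cntn2 to the left.

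Nfasc had the largest change of the 8. Across VCN, LSO and MNTB it stood at 10.38, 9.70 and 9.81 at P3, and at 11.61, 11.47 and 12.04 at P14. Every P14 value lay above every P3 value, and the order of the nuclei differed between the ages, with VCN highest at P3 and MNTB highest at P14. The rises were 1.23, 1.78 and 2.23 in the same order of nuclei, with a mean of 1.74 ± 0.18 (SE, n = 3 nuclei, limma adjusted p = 0.00129). Its size exceeded that of 97.4% of tested genes, and Nfasc passed in each of 6 refits that dropped an array in turn. Nfasc makes a neuronal form at the node and a glial form at the paranode, and the annotation used here does not say which of them its probe sets read.

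Nrcam, which joins neurofascin at the node, went the other way. Its P3 values across VCN, LSO and MNTB were 11.47, 11.44 and 11.37, and its P14 values 10.73, 11.18 and 10.99. The nuclei were close together at P3, and all 3 were lower at P14. The fall was largest in VCN, and the mean change was -0.46 ± 0.11 (SE, n = 3 nuclei, limma adjusted p = 0.0179). Without the MNTB array of P3 or of P14 the change was -0.50 and did not pass (adjusted p = 0.0661 and 0.0634).

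**Figure D2:**
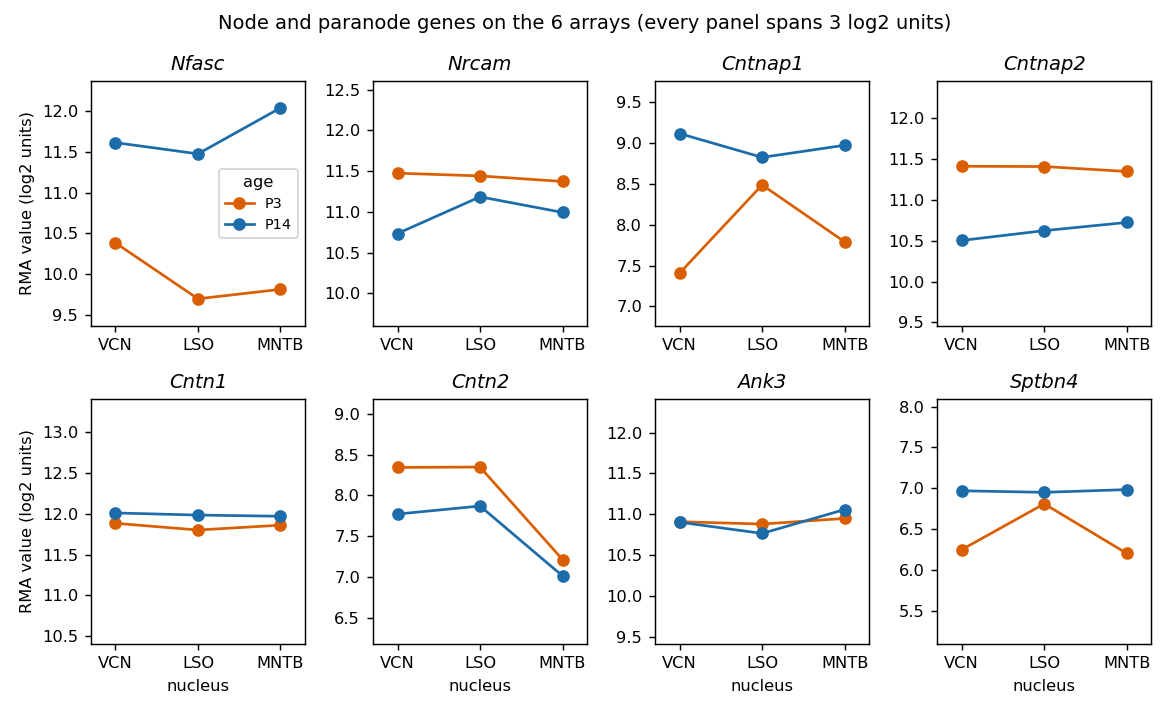
RMA values of the 8 genes in log2 units on the vertical axis, for VCN, LSO and MNTB at P3 (orange) and P14 (blue), 1 point an array, where panels have different levels but the same span, and lines only join arrays of an age. Nfasc is separated by age, Cntn2 by nucleus, and Cntnap1 and Sptbn4 stand higher in LSO than in the other nuclei at P3.

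At the paranode, Cntnap1 rose whereas its partner Cntn1 did not pass. Cntnap1 stood at 7.41, 8.49 and 7.79 across VCN, LSO and MNTB at P3, and at 9.12, 8.83 and 8.97 at P14. The LSO value of P3 was the highest of that age and came within 0.34 of the LSO value of P14. The rise was 1.71 in VCN and 1.18 in MNTB, and its mean was 1.08 ± 0.25 (SE, n = 3 nuclei, limma adjusted p = 0.0186), a 2.11-fold rise. Cntnap1 had a single probe set, and without the MNTB array of P3 or of P14 its rise was 1.02 and did not pass (adjusted p = 0.0784 in each fit).

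Cntn1, the contactin that binds Caspr on the axon, varied least of the 8 genes, over a range of 0.21. It read 11.88, 11.80 and 11.86 in VCN, LSO and MNTB at P3, and 12.01, 11.98 and 11.97 at P14. Each P14 value lay above all P3 values by a small margin. The mean change of 0.14 had a 95% interval from -0.0037 to 0.28 (limma adjusted p = 0.106), so a rise of more than 0.28 lies outside this interval. A probe set of lower mean, 1459197_at, gave a different picture for Cntn1. It read 6.37, 5.14 and 6.15 in VCN, LSO and MNTB at P3, and 9.33, 9.30 and 9.40 at P14, a difference of 3.46 ± 0.23 (SE, n = 3 nuclei) that passed in a fit over 27000 probe sets (adjusted p = 0.000315, 41.2% of probe sets passing). The third probe set of Cntn1 differed by 0.07 (adjusted p = 0.430). The sources used here do not say which part of the gene each probe set reads.

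At the juxtaparanode both members fell. Cntnap2, which links to Kv1 channels, stood at 11.41, 11.41 and 11.35 in VCN, LSO and MNTB at P3 and at 10.50, 10.62 and 10.72 at P14. The nuclei lay within 0.06 of each other at P3, and all P14 values were lower. The change was -0.77 ± 0.08 (SE, n = 3 nuclei, limma adjusted p = 0.00141), it passed in all 6 refits with an array dropped, and age accounted for 97.1% of the variation of Cntnap2 over the arrays.

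Cntn2, an axonal adhesion molecule that in young neurons also guides axon growth, was set apart by nucleus more than by age. Across VCN, LSO and MNTB it read 8.34, 8.35 and 7.21 at P3, and 7.77, 7.87 and 7.01 at P14. Both MNTB values lay below all VCN and LSO values, so the ages overlapped. The sets 1435166_at and 1456962_at of Cntn2 also had both MNTB values lowest. In its set 1450523_at, however, the MNTB value of P3 (7.33) lay above the LSO value of P14 (7.32). The age change was -0.42 ± 0.13 (SE, n = 3 nuclei, limma adjusted p = 0.0429). It passed in none of the 6 refits that dropped an array (adjusted p = 0.0695 to 0.163, changes of -0.52 to -0.34), nor with the median of its probe sets (-0.34, adjusted p = 0.104) or without nucleus in the model (adjusted p = 0.397).

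Of the scaffold genes, Ank3 showed no change that passed and Sptbn4 rose. Ank3 stood at 10.91, 10.88 and 10.95 in VCN, LSO and MNTB at P3 and at 10.90, 10.76 and 11.06 at P14. The ages overlapped, and the mean difference of -0.004 had a 95% interval from -0.20 to 0.19 (limma adjusted p = 0.973), with a sign that turned when arrays were centred on their medians (0.0158). Sptbn4, whose protein binds ankyrin G, stood at 6.25, 6.81 and 6.20 at P3 and at 6.97, 6.95 and 6.98 at P14. The 3 nuclei lay within 0.03 of each other at P14, and at P3 LSO was already near that level. The rise was 0.55 ± 0.17 (SE, n = 3 nuclei, limma adjusted p = 0.0426), with 0.72 in VCN, 0.78 in MNTB and 0.14 in LSO. Of the 6 refits that dropped an array it passed in 2, those lacking an LSO array (0.75), and not in the other 4 (0.43 to 0.46, highest adjusted p = 0.195). It also did not pass with no filter on low values (adjusted p = 0.0606).

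The probe sets of a gene did not always read alike. For Nrcam the 4 probe sets differed between the ages by -0.67 to -0.43 and for Cntnap2 the 3 by -0.77 to -0.51, and in both genes every set that was tested passed. For Nfasc the second set rose by 1.55 (adjusted p = 0.000656), whereas the third, 1459357_at, differed by 0.11 (adjusted p = 0.800), with -0.67 in VCN, 0.98 in LSO and 0.00 in MNTB. The 4 sets of Cntn2 differed by -0.44 to -0.18, and of the 3 that were tested the set used for the gene was the 1 that passed. Of the 6 sets of Ank3, the 4 with the highest means differed by -0.09 to 0.04 and did not pass. The dim set 1447259_at of Ank3 fell by 0.81 (adjusted p = 0.0224), from 5.72 to 6.49 at P3 to 4.92 to 5.73 at P14. The other dim set, 1457288_at, was below the filter and also lower at P14 in each nucleus, by a mean of -0.46.

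**Figure D3:**
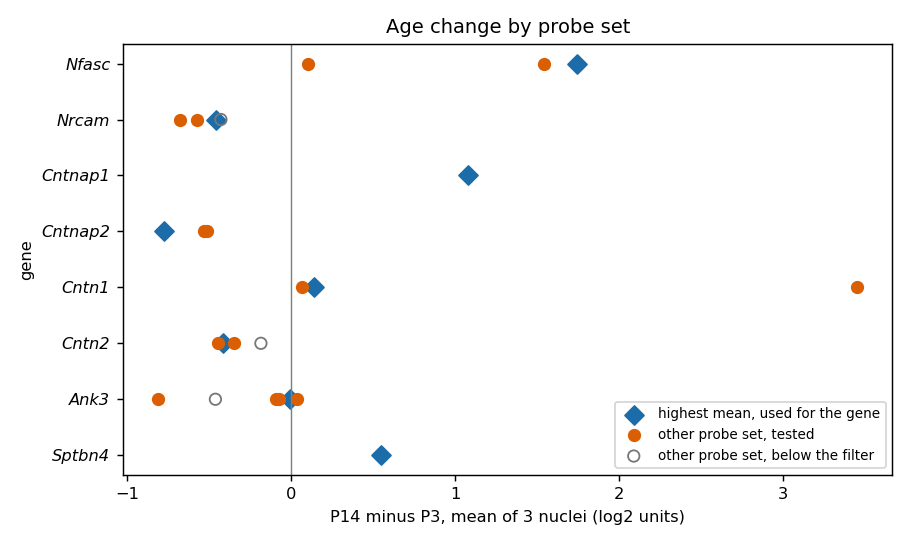
Age change of each of the 25 probe sets of the 8 genes, as the mean difference over 3 nuclei in log2 units, where diamonds are the probe sets used for a gene, filled circles other tested sets and open circles sets below the filter on low values. The set of Cntn1 at 3.46 and the sets of Nfasc at 0.11 and of Ank3 at -0.81 and -0.46 stand away from the set used for their gene.

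None of the 8 genes passed in any contrast between nuclei. Over all genes 0.37% passed for LSO minus VCN, 0.602% for MNTB minus VCN and 0.162% for MNTB minus LSO, so few genes of any kind were called. By direction these were 0.201% higher and 0.17% lower in LSO than in VCN, 0.162% higher and 0.44% lower in MNTB than in VCN, and 0% higher in MNTB than in LSO. Cntn2 was nearest. Its difference was -0.94 for MNTB minus VCN (95% interval -1.32 to -0.56, limma adjusted p = 0.0857) and -0.996 for MNTB minus LSO (-1.38 to -0.62, adjusted p = 0.176). With the median of the probe sets of Cntn2 these were -0.62 and -0.36 (adjusted p = 0.320 and 0.827). For the other 7 genes the interval of every contrast contained 0. The narrowest were those of Cntn1, where MNTB minus VCN was -0.03 with an interval from -0.21 to 0.14, and the widest those of Cntnap1, with -0.64 to 0.88 for the same contrast.

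**Figure D4:**
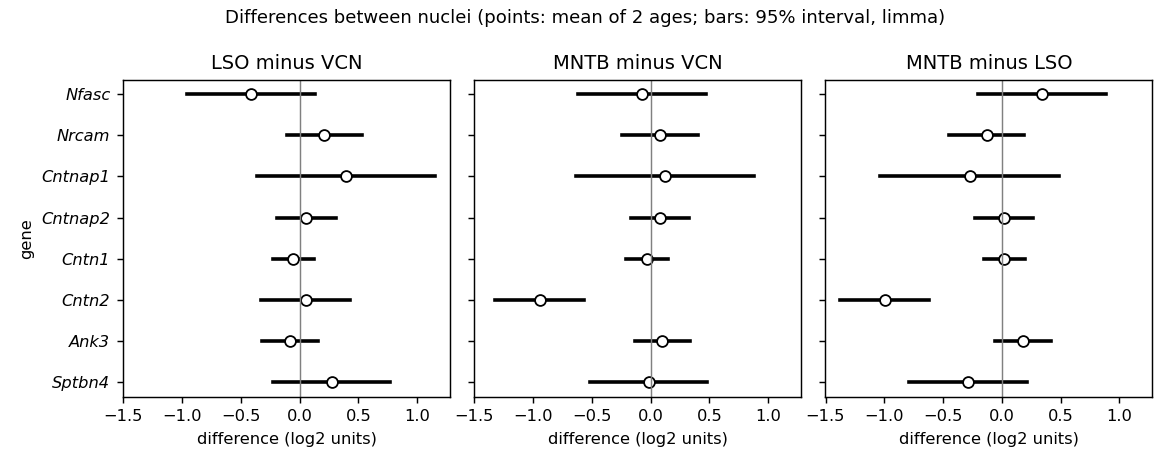
Differences between nuclei for the 8 genes in log2 units, as means over the 2 ages with 95% limma intervals, for LSO minus VCN, MNTB minus VCN and MNTB minus LSO, where open circles mark differences that did not pass after adjustment, which all 24 were. Cntn2 lies at -0.94 and -0.996 in the contrasts with MNTB, and intervals of the other genes cross 0.

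The genes differed in how much of their variation went with age. Age accounted for 91.2% of the variation of Nfasc, 74.6% of Nrcam, 73.0% of Cntnap1 and 66.2% of Sptbn4, against a median of 58.8% over tested genes. For Cntn2 it was 16.7%, with 80.9% for nucleus, against a median of 17.5% for nucleus over tested genes. For Ank3, over a range of 0.29, age accounted for 0.1% and nucleus for 72.3%. For Cntn1 age accounted for 86.8%, although its small change did not pass. Cntnap1 ranged over 1.08 between the nuclei at P3 and over 0.29 at P14, and Sptbn4 over 0.61 and 0.03. Nrcam instead ranged over 0.10 at P3 and 0.45 at P14. The range was wider at P3 in 5 of the 8 genes, and in 55.8% of all tested genes.

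Myelin and neuronal genes were set beside these values, because whole tissue was sampled. Of 11 tested genes of mature oligodendrocytes and myelin, 11 rose, and their summed level was 14.43, 13.17 and 13.58 across VCN, LSO and MNTB at P3 and 15.92 to 16.06 at P14 (log2 of the sum of linear values). Nfasc shared this order of nuclei at P3, VCN above MNTB above LSO, whereas Cntnap1 and Sptbn4 were highest in LSO. At P14 Nfasc and the myelin sum were both highest in MNTB, but Nfasc was lowest in LSO and the sum in VCN. Cntnap1 was then highest in VCN and Sptbn4 in MNTB. Of 10 general neuronal genes 3 rose and 5 fell, with summed levels of 15.47 to 15.78 at P3 and 15.47 to 15.73 at P14, and the LSO array of P3 was the highest of its age. At P3, 6 of the 10 were highest in LSO, 2 in VCN and 2 in MNTB. At that age 10 of the 11 myelin genes were highest in VCN and 1 in LSO. At P14, 5 of the 10 neuronal genes were highest in VCN and 5 in LSO. Then 8 of the 11 myelin genes were highest in MNTB, 2 in LSO and 1 in VCN. Among 7 oligodendrocyte precursor genes 4 rose and 2 fell, and all 7 were highest in MNTB at both ages. Of 7 genes of immature neurons 7 fell, with summed levels of 15.28 to 15.46 at P3 and 14.13 to 14.45 at P14. Of 3 tested Schwann cell genes 2 rose (Pmp22 and Sox10) and 1 fell (Drp2), and Sox10 is also among the oligodendrocyte precursor genes. Summed over the 5 Schwann cell genes on the array, levels were 10.83 to 10.98 at P3 and 11.32 to 11.61 at P14. Cdh19, a Schwann cell gene below the filter, read 3.42 to 3.84 at P3, within the range of the unspiked array controls (2.84 to 4.42), and 6.61 to 7.05 at P14. Egr2, also below the filter, went the other way, with 6.47, 6.13 and 4.43 across VCN, LSO and MNTB at P3 and 4.47 to 4.68 at P14. Of 5 choroid plexus genes 1 was tested, Ttr, which did not pass with age (limma adjusted p = 0.180). Ttr read 12.58 in VCN at P14 and 6.61 to 6.93 elsewhere. Otx2, below the filter, read 9.34 in VCN at P3, 6.52 in VCN at P14 and 3.04 to 3.34 in LSO and MNTB. Folr1, Kl and Clic6, also below the filter, read between 4.44 and 6.26 on all arrays. Of 7 astrocyte genes 5 rose and 2 fell, of 5 endothelial genes 5 rose, and of 6 microglia genes 4 rose and 0 fell. Over all tested genes 23.4% were higher and 17.7% lower at P14. The part of these cell types in the changes of the 8 genes was not tested.

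Other genes of these domains were counted in 7 lists, beside 23.4% of all tested genes higher and 17.7% lower at P14. Ank1, Ank2 and Sptbn1 stand in a pair of these lists each. Ermn of the nodal matrix list was also counted above as a myelin gene, and Rbfox3 of the splicing list as a neuronal gene. Among 9 tested channel genes of node and initial segment, 3 rose and 5 fell, with a median of -0.69. The rises were those of Scn4b (3.18), Scn2b (1.62) and the pore subunit gene Scn1a (0.92), and the largest falls those of Scn3b (-2.12), Scn3a (-2.11) and Scn2a (-1.39). Scn8a, whose product is the main sodium channel of mature nodes, differed by 0.28 (limma adjusted p = 0.0989). In nodal matrix and its partners 4 of 9 rose and 3 fell. Ermn (6.22), whose product is a cytoskeletal protein of myelinating oligodendrocytes, the link protein gene Hapln2 (4.65) and Omg (1.83) rose most, and the proteoglycan genes Sdc3 (-0.71) and Ncan (-0.37) and the dystroglycan gene Dag1 (-0.35) fell. Hapln2 in LSO and MNTB and Ermn in MNTB lay within the range of unspiked controls at P3, so those rises are lower bounds.

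Among 12 genes of the paranodal cytoskeleton and its glial partners, 9 rose and 2 fell, with a median of 1.48. Mal, Ugt8a, Mag and Cldn11, which are among these rises, were also counted above as myelin genes. The myelin genes Mal (5.40), Ugt8a (3.12) and Mag (3.06) rose most, while the axonal spectrin gene Sptan1 (-0.38) and the ankyrin B gene Ank2 (-0.31), which form the paranodal axon scaffold, fell. Epb41l3, whose product links Caspr proteins to that scaffold, rose by 0.54 (limma adjusted p = 0.00504). In the juxtaparanode list 9 of 13 rose and 1 fell, with a median of 1.11, in contrast to the falls of Cntnap2 and Cntn2. The Kv1 channel gene Kcna1 rose by 2.37, the ligand gene Lgi3 by 1.99 and the Kv1 beta subunit gene Kcnab2 by 1.82, and the scaffold gene Dlg4 fell by 0.76. Of 7 genes of the initial segment cytoskeleton, Synpo rose by 1.70 and Trim46 fell by 1.32, and 5 did not pass. With the median of each gene's probe sets 3 of these 7 fell, beside 2071 of 12128 genes. With a filter at the 60th percentile 5 were tested and none passed, beside 4528 of 9545 genes that did.

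Relatives and splicing regulators of the 8 genes were counted in the same way. Of 12 tested relatives 3 rose and 5 fell, with a median of -0.32. The L1 family members L1cam (-1.38) and Chl1 (-1.02) and the Caspr family gene Cntnap4 (-1.07) fell, and Ank1 (1.60), the spectrin gene Sptb (0.76) and the contactin gene Cntn3 (0.52) rose. Within the L1 family, Nfasc was thus the 1 of 4 measured genes that rose, beside falls of Nrcam, L1cam and Chl1. Among 13 neuronal and glial splicing regulators 10 fell and 1 rose, with a median of -0.51: Celf5 (-2.61), Nova1 (-1.63) and Rbfox3 (-1.12) fell most, and Qk, which regulates splicing in oligodendrocytes, rose by 0.53. Without an MNTB array of either age, the falls went from 5 to 3 for channels and from 2 to 0 for paranodal partners. Those of the juxtaparanode went from 1 to 0 and those of relatives from 5 to 3, and the rises of relatives from 3 to 1. Over all tested genes the falls went from 2288 to 1263 without the MNTB array of P3 and to 1296 without that of P14. The rises over all genes went from 3029 to 1879 and 1880. Without the LSO array of P3 the paranodal falls were 0, and without that of P14, or with no variance trend, they were 1. Over all genes the falls in these fits were 1547, 1599 and 2152. The rises of relatives were 1 with quantile normalization repeated, and those of splicing regulators 0 with the median of probe sets. Over all genes 2681 of 12958 and 2781 of 12128 rose in these fits.

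**Figure D5:**
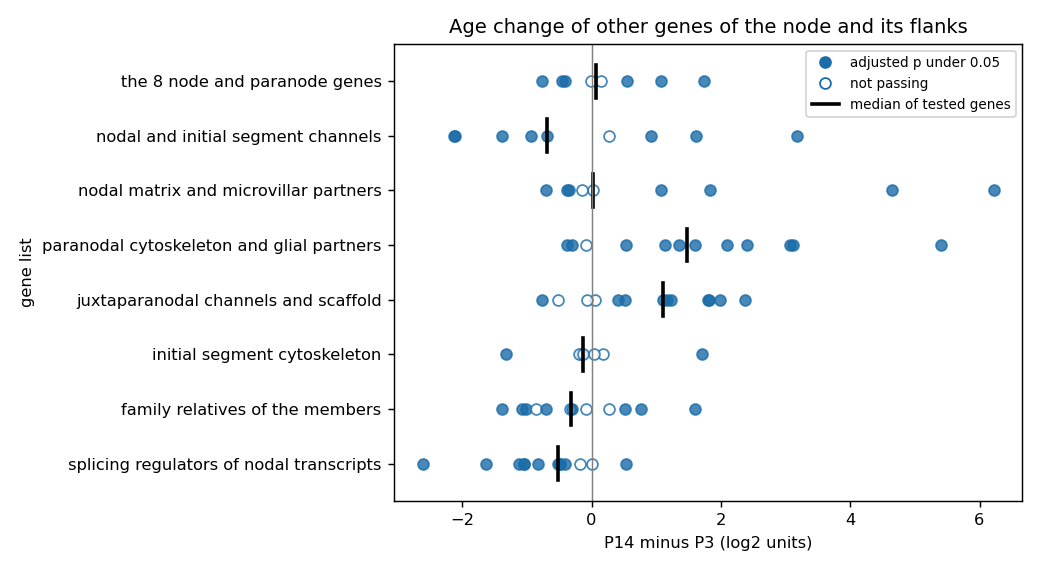
Age change of the 8 genes and of the tested genes in 7 lists, as P14 minus P3 in log2 units, where each circle is a gene, filled where adjusted p was under 0.05, and bars are list medians. The paranodal (1.48) and juxtaparanodal (1.11) lists have their medians to the right of 0, channels (-0.69) and splicing regulators (-0.51) to the left.

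Genes with the most similar pattern over the 6 arrays were sought for the 3 genes with a range of at least 1, as the smallest root mean square difference after centring each gene on its mean. Slc12a2, the chloride importer gene, was nearest to Nfasc at 0.11, followed by Plekha1 at 0.14. Slc12a2 read 9.78, 9.20 and 9.23 in VCN, LSO and MNTB at P3 and 11.15, 11.07 and 11.31 at P14, with VCN highest at P3 and MNTB at P14 as for Nfasc. Gla, which encodes a lysosomal galactosidase, and Gpat3 were nearest to Cntnap1, each at 0.14, and both were highest in LSO at P3. Slc16a11 at 0.14 and Ubash3b at 0.16 were nearest to Cntn2, with their lowest value at each age in MNTB. Among the 8 genes themselves the nearest pair was Cntn1 and Ank3 at 0.12, which both varied little, followed by Nrcam and Cntnap2 at 0.19, and the farthest was Nfasc and Cntnap2 at 1.28. These distances are descriptions over 6 arrays, without a test.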

How the data were processed

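RNA from 6 pools, amplified from 20 ng, was hybridised to 1 array each. The deposited table holds log2 values made by the authors with RMA, per the submitters' processing notes. The sources used here give neither its version nor scan dates, and no batch was tested. Names came from the platform annotation, through probe sets naming 1 gene. The brightest probe set on average stood for a gene (sets ending in _x_at were left out where another existed), and 12958 genes whose mean reached the 40th percentile over probe sets (5.57) were tested. Age and nucleus entered additively in limma 3.58.1 (R 4.3.3), with an intensity trend, 2 residual and 3.95 prior degrees of freedom, two-sided tests and Benjamini-Hochberg adjustment. The fit was tested on simulated data, but no outcome of that is given here, so it lends the results no weight. The text names all 8 genes, up to 3 rises and 3 falls per list that had 1 sign in 3 nuclei, and the 2 genes most like each of the 8 with a range of at least 1. Scn8a, Epb41l3, Cldn11 and the single Schwann cell and choroid plexus genes were named after their values were seen. The 8 genes, the lists and these rules were chosen with earlier results of these data known. The number of arrays limits the precision. Alternatives changed the filter, scaling, probe set, floor, variance trend, nucleus term and arrays.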

Additional observations from a re-analysis of the deposited data

Results flagged for a closer look

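Ank3 had age differences of opposite sign in the nuclei, at -0.0061 in VCN, -0.11 in LSO and 0.11 in MNTB. With 1 array for each nucleus and age, whether these differ was not tested.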

How the results depend on the processing

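The signs of the age changes were kept in all alternatives for 7 of the 8 genes, Ank3 excepted, and Nfasc and Cntnap2 passed in all of them except for the third probe set of Nfasc (0.11). Ank3 was at 0.0158 with arrays centred, 0.0355 in its set 1425202_a_at, -0.81 in set 1447259_at and -0.0605 to 0.0515 with 1 array left out. Cntn2 did not pass with no filter (-0.42, adjusted p = 0.0576), centring (-0.40, 0.0509), the median of its probe sets (-0.34), age alone (-0.42, 0.397) or its sets 1450523_at (-0.35) and 1435166_at (-0.44). Sptbn4 did not pass with no filter (0.55) or repeated quantile normalization (0.54, 0.053), and with a filter at the 60th percentile it was not tested. Cntn1 passed with age alone (0.14, adjusted p = 0.0495) and in set 1459197_at (3.46). With 1 array left out the changes were 1.50 to 2.00 for Nfasc, -0.56 to -0.32 for Nrcam, 0.76 to 1.45 for Cntnap1, -0.85 to -0.71 for Cntnap2, -0.52 to -0.34 for Cntn2, 0.12 to 0.16 for Cntn1 and 0.43 to 0.75 for Sptbn4. Of the 8 genes 1 to 3 then rose and 1 to 2 fell. Over all genes, 3142 to 4710 then passed for age, 4 to 159 for LSO minus VCN, 17 to 215 for MNTB minus VCN and 4 to 99 for MNTB minus LSO, against 5317, 48, 78 and 21 with all arrays. The filter at the 60th percentile gave 29 for LSO minus VCN and 51 for MNTB minus VCN. The cause of these moves was not tested, beyond there being fewer arrays or other genes in the fit. Removing the nucleus term, which serves as the replicate block and pairs the ages by nucleus, gave 5074 genes for age, with 4 of the 8 genes higher and 2 lower. The labels do not say if the same animals gave all 3 nuclei.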
